A study of Mus musculus with 8 samples.

Results

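The comparison set the RNA bound to Argonaute (Ago) in mouse ES cells against the RNA bound to it in the neural precursors they give rise to, the first and the last stage of an in vitro neuralization course. Ago enrichment (E) of a gene is the log2 ratio of its Ago–RNA signal to its total RNA signal at a stage, and ΔE is E in neural precursors minus E in ES cells. A gene was counted as bound when its Ago–RNA signal exceeded a threshold T1. For T1 a mixture of 2 Gaussians was fitted to the probes of that array, and the dimmer component's mean was taken and 3 of its SD were added. Of 36163 gene names on the array, 18830 (52.1%) were bound in ES cells or in neural precursors, and these genes are described here.

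The cells were of the E14Tg2A line, wild-type ES cells of the 129/Ola strain. ES cells were taken at 0 days of in vitro differentiation (DIV), and neural precursors (NPC/Neu) at 10 DIV in minimal medium without leukemia inhibitory factor. Epiblast-like aggregates (ELA, 2 DIV) and neural progenitor cells (NPC, 6 DIV) lie between them and were used for the path of each gene. All samples come from this 1 line and carry no transgene or drug. At each stage 1 array received RNA immunoprecipitated from the cytosolic fraction with a pan-Ago antibody and 1 array received total RNA, each a pool of 3 independent experiments. There is thus 1 array per condition among the 8 arrays, no value has a replicate, and no test between the stages can be made. A cytosolic immunoprecipitate was compared with RNA of whole cells, so that E also holds the difference between cytosol and nucleus. The number of arrays limits the precision, and the only error available is the spread between spots of 399 probes printed 10 times on each array. The median SD between spots was 0.19 for E in ES cells, 0.22 for E in NPC/Neu, 0.30 for ΔE and 0.21 for the log2 difference in total RNA between the stages.

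All 8 arrays lay on 1 slide. The mean signal had an upper quartile of 3039 for Ago–RNA of ES cells and of 1060 to 1774 elsewhere, and 53.4% to 61.2% of spots were well above background. Markers followed the labels. The median log2 difference in total RNA between NPC/Neu and ES cells was -4.09 for 16 naive pluripotency factors and -3.93 for 12 core pluripotency factors, while it was 3.23 for 18 neural progenitor markers and 2.76 for 19 neuron markers. Markers of glia (12 genes, 9 of them bound) and of mesoderm, endoderm and fibroblasts (17 genes, 11 bound) were also detected, with median differences of 0.98 and 1.43 over the bound members. In such mixed cultures, fewer cells of a type and less RNA per cell cannot be told apart.

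Ago proteins carry the miRNA in the RNA-induced silencing complex (RISC), and bases 2 to 8 of the miRNA, its seed, pair with matching sites that lie mostly in the 3′ UTR of target mRNAs. RISC bound to a target blocks its translation or leads to its decay, and the RNA recovered with Ago is compared with total RNA to find mRNAs that are over-represented on it. ES cells are known for the miR-290 family and the miR-17 family, which share most of their seed, whereas let-7, miR-125 and miR-9 accumulate as neural cells form.

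The mature sequences of the miRNAs whose sites were searched are shown here because the sites described further on pair with them; miRNA levels were not measured on these arrays. Capitals mark the seed, and the sequences are those of RefSeq for GRCm38.p6. The first pair has the same seed, and that of miR-17-5p is shifted against it by 1 base.

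miR-291a-3p: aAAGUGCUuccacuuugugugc

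miR-294-3p: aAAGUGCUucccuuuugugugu

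miR-17-5p: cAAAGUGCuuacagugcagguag

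let-7a-5p: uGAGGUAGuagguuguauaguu

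miR-125b-5p: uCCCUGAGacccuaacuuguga

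miR-9-5p: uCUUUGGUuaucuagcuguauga

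The sites below lie in the 3′ UTR of genes described further on, and are shown on the strand of the mRNA with 28 bases each and the 7-base seed match in capitals. Coordinates are those of mm9, the build of the array's design. Huwe1 was highly enriched on Ago at both ends, and its site fits miR-291a-3p as well as miR-17-5p. Myh9 was also enriched at both ends, and Chtf8 and Nhlrc3 were enriched in NPC/Neu. A match is a description of the sequence and does not show that a miRNA was bound there.

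Huwe1, miR-291a-3p match, chrX:148369878-148369905, plus strand: tttactctatccAGCACTTtatcagact

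Myh9, miR-9-5p match, chr15:77592136-77592163, minus strand: tgagaatctgatACCAAAGagtccaggc

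Chtf8, miR-125b-5p match, chr8:109408264-109408291, minus strand: cgtggacttttcCTCAGGGatacattgg

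Nhlrc3, let-7a-5p match, chr3:53255001-53255028, minus strand: ttaactgtgtccCTACCTCtcaccagac

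Nhlrc3, miR-291a-3p match, chr3:53256276-53256303, minus strand: ggagcttcgggtAGCACTTcagagccac

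Most bound genes had an Ago–RNA signal above T1 at both ends. Such a signal is not an enrichment over total RNA, and control immunoprecipitations were not used here. Of the 18830 genes, 15298 (81.2%) were above T1 in both ES cells and NPC/Neu, 1748 (9.28%) in ES cells only and 1784 (9.47%) in NPC/Neu only. The median of E was 0.09 before and 0.12 after the course, and that of ΔE was 0.04 with quartiles of -0.32 and 0.40. E was higher by 1 or more in NPC/Neu for 928 genes (4.93%) and lower by 1 or more for 909 (4.83%).

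Ago enrichment differed less between the ends than the transcripts themselves. All probes were well above background on the 4 arrays of the 2 ends for 15567 bound genes, called measured genes below. Among them ΔE was beyond 1 in either direction for 9.05%, whereas the log2 difference in total RNA was beyond 1 for 35.6%. ΔE was beyond 2 for 86 of these genes and total RNA for 1978, and 64.7% of the genes had ΔE within 0.5 of zero. Across 15537 measured genes, E in ES cells and E in NPC/Neu had a Pearson correlation of 0.80 and a Spearman correlation of 0.78. Over the same genes the Pearson correlation between the log2 differences of Ago–RNA and total RNA was 0.91. Genes are not independent replicates, and the same probes on the same slide gave both values.

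**Figure D1:**
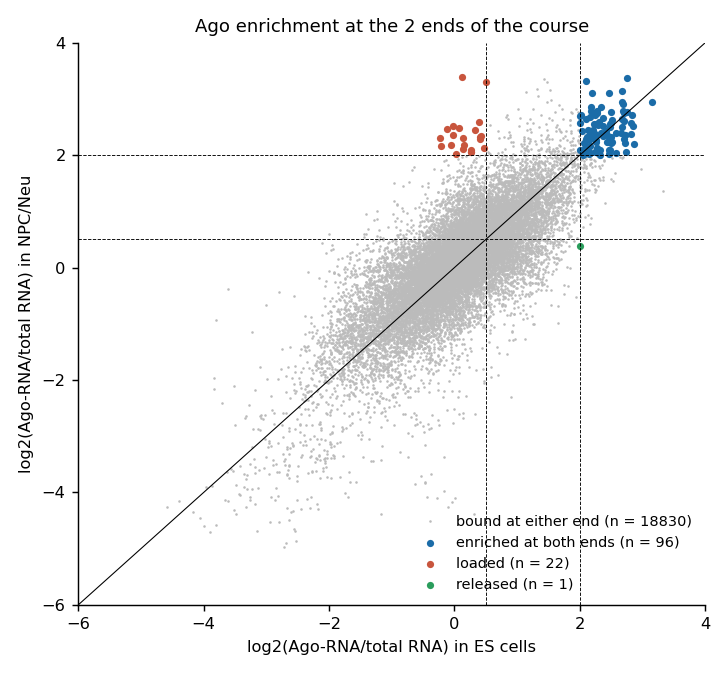
Each point is a gene bound to Ago at either end of the course (n = 18830), with log2(Ago-RNA/total RNA) in ES cells on the x axis and in NPC/Neu on the y axis; dashed lines mark the limits of 0.5 and 2, and the solid line marks equal values. The 96 genes enriched at both ends form the upper right group, 22 loaded genes lie at the upper middle and the 1 released gene at the lower right.

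By the limits used for release and loading, an mRNA was enriched on Ago where E was at least 2, not enriched where E was at most 0.5, and released or loaded where ΔE was also -1.5 or lower, or 1.5 or higher. Enrichment was kept at both ends by 96 genes (0.51% of bound genes), gained (loaded) by 22 genes (0.117%) and lost (released) by 1 gene (0.00531%). E is what chose these genes, so their E at the ends is given as a description. E reached 2 for 183 genes in ES cells and for 286 in NPC/Neu, and the 96 genes are 52.5% of the former and 33.6% of the latter. Of the 87 genes past the limit in ES cells only, 80 had E of at least 1 in NPC/Neu, and of the 190 past it in NPC/Neu only, 145 had E of at least 1 in ES cells. The members nearest to the limit at their lower end were Rrp12 with 2.01, Ctnnb1 with 2.01 and Atm with 2.01, and Msh6 with 1.99, Herc1 with 1.99 and Mcm3ap with 1.99 lay just outside. All 3 counts depend on the scaling. With the processed signal of the scanner, quantile normalized or scaled to the 75th percentile, loaded genes were 376 and 234 and released genes were 159 and 68. Kept genes were 211 after that quantile normalization and 244 with the Ago–RNA and total RNA arrays normalized apart. Under the 75th percentile scaling 91 genes were kept and 46 of them were among the 96.

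The 6 genes with the highest enrichment at their lower end encode large proteins of general cell functions. Huwe1, a HECT ubiquitin ligase on chromosome X (148235350 to 148369960), had log2 Ago–RNA signals of 17.62 in ES cells and 18.30 in NPC/Neu against total RNA signals of 14.46 and 15.35. Its E was thus 3.16 and 2.95, close to the same at both ends although the total RNA signal was higher by 0.89 in NPC/Neu. Cltc, the clathrin heavy chain on chromosome 11 (86507853 to 86571067), had Ago–RNA signals of 15.46 and 16.05 against total RNA of 12.77 and 13.26, and E of 2.70 and 2.79. Myh9, the heavy chain of a non-muscle myosin on chromosome 15 (77591017 to 77672605), had Ago–RNA signals of 17.45 and 16.85 against 14.70 and 14.08, and E of 2.75 and 2.76. For Cltc and Myh9 the 2 ends differed by less than the spot SD of ΔE. Supt6h, a transcription elongation factor on chromosome 11 (78020248 to 78059489), had E of 2.83 and 2.71 (its 2 probes gave ΔE of -0.60 and 0.36), and Ubr4, a ubiquitin ligase of the N-degron pathway on chromosome 4 (138908524 to 139045503), had E of 2.70 and 2.75 as the mean of 2 probes with ΔE of -0.31 and 0.40. Spna2 (Sptan1), the non-erythroid α spectrin on chromosome 2 (29821080 to 29886971), had Ago–RNA signals of 15.72 and 16.49 against 12.97 and 13.11 and went from 2.76 to 3.38, the largest difference of the 6. Its sign depends on the probe, since ΔE was -0.20 at the brighter probe alone.

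Among the lists of genes examined, each member that kept its enrichment is named here, where 0.51% of all bound genes kept it. The share was higher for long transcripts, at 2.78% of measured genes of 6000 to 8000 bases and 7.33% of those of 8000 or more. Such members were 1 of 4 DNA methyltransferases, 1 of 15 miRNA pathway genes, 1 of 19 let-7 targets and 1 of 18 neural progenitor markers. There were also 2 of 40 replication genes, 2 of 21 nucleoporin genes, 2 of 39 bound collagens and laminins and 1 of 17 acetyltransferases. Lists not named here had none. The nucleosome remodelers Chd1, Chd4, Chd7 and Chd8 were the 4 of 34 SWI/SNF and CHD genes, with E of 2.17, 2.86, 2.50 and 2.50 in ES cells and 2.37, 2.20, 2.21 and 2.32 in NPC/Neu. Dnmt1, the maintenance DNA methyltransferase, had 2.65 and 2.40. Dicer1, which cuts miRNA precursors and is itself a known let-7 target, had 2.05 and 2.08. Nes, the intermediate filament protein nestin of neural progenitors, had 2.01 and 2.09 although its total RNA was higher by 2.70 in NPC/Neu. The replication genes Mcm4, a subunit of the replicative helicase, and Rrm1, a subunit of ribonucleotide reductase, had 2.06 and 2.09 in ES cells and 2.07 and 2.13 in NPC/Neu. The nucleoporin genes Nup133 and Nup205 had 2.68 and 2.32 in ES cells and 2.49 and 2.09 in NPC/Neu. The laminin chains Lama5 and Lamb1 had E of 2.12 and 2.06 in ES cells and 2.44 and 2.02 in NPC/Neu, with log2 differences of -2.74 and -2.12 in total RNA. Mgea5, listed by the study among the histone acetyltransferases and best known as the enzyme that removes O-GlcNAc from proteins, had 2.27 and 2.79. Total RNA of the 96 genes differed between the ends by a median of 0.15 with quartiles of -0.51 and 0.75.

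**Figure D2:**
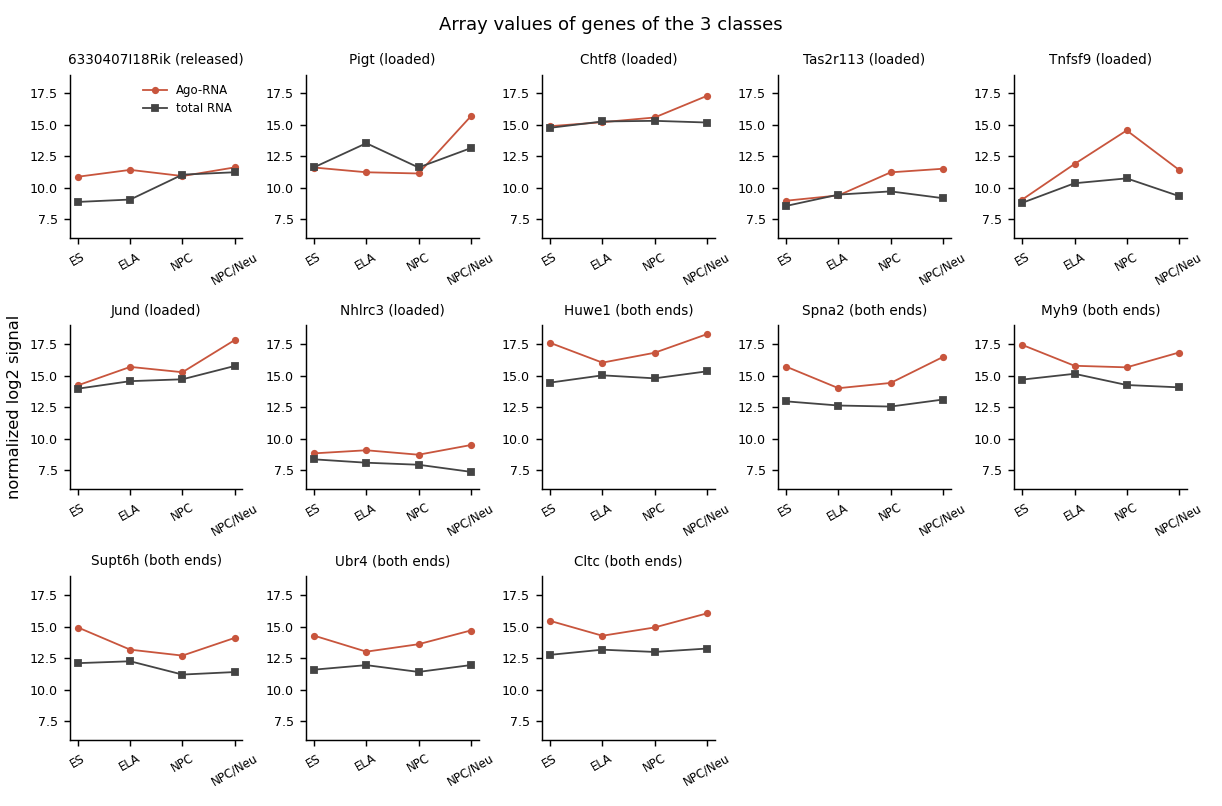
Normalized log2 signal of Ago-RNA (circles) and total RNA (squares) at the 4 stages, 1 array each, for the released gene, the 6 loaded genes and the 6 genes enriched at both ends that are named by rule. The distance between the lines is E. For Huwe1, Myh9, Cltc and the other genes enriched at both ends the lines are wide apart at both ends and closer at the ELA stage.

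Enrichment of the 96 genes was not held through the course. Their median E began at 2.32, was 0.73 in ELA and 1.63 in NPC, and ended at 2.38. All 96 genes had a lower E in ELA than at either end, which was so for 40.2% of all bound genes, and none reached 2 in ELA while 11 did in NPC. Huwe1 went through 1.01 in ELA and 2.03 in NPC, and Myh9 through 0.64 and 1.40. Since genes chosen for high values at 2 stages tend to be lower at any other, ranks among measured genes were also taken. By median rank the 96 genes were at percentile 99.6 in ES cells, at 91.3 and 98.4 in the middle stages and at 99.4 in NPC/Neu, so that in ELA they still ranked high in a narrower range of values. Over measured genes the SD of E was 0.92 and 0.97 at the ends but 0.54 in ELA and 0.70 in NPC. With separate normalization of the Ago–RNA and the total RNA arrays, the median E in ELA of the genes then kept was 0.99.

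Genes enriched at 1 end only took related paths. The 87 genes with E of at least 2 in ES cells but not in NPC/Neu had medians of 2.15, 0.41, 1.07 and 1.60 from ES cells to NPC/Neu. The 190 genes with E of at least 2 in NPC/Neu but not in ES cells had medians of 1.46, 0.56, 1.28 and 2.24. Both sets were thus already above the median of all genes at their lower end.

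**Figure D3:**
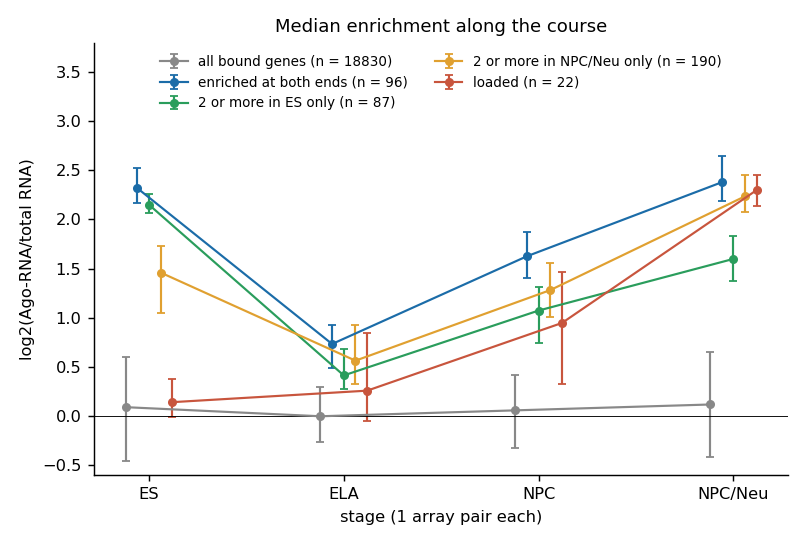
Median E (points) with quartiles (bars) at the 4 stages for all bound genes, the 96 genes enriched at both ends, genes with E of 2 or more at 1 end only, and the 22 loaded genes. The medians of the enriched genes are lowest in ELA (0.73 for the 96 genes), while the median of all bound genes stays within 0.12 of zero.

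Binding at 1 end only went with a difference in total RNA in the same direction for most genes, although most of these transcripts were detected at both ends. Total RNA was lower by 1 or more in NPC/Neu for 62.4% of the 1748 genes bound in ES cells only, and higher by 1 or more for 59.8% of the 1784 genes bound in NPC/Neu only. Total RNA was still well above background at the other end for 60.5% and 59.1% of them. It differed by less than 0.5 for 20.4% of the genes bound in ES cells only and for 21.8% of those bound in NPC/Neu only. Their median ΔE was -0.00 and 0.27.

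The largest differences were those of stage-specific genes. Bcl3, a nuclear regulator of NF-κB on chromosome 7 (20393811 to 20408119), had an Ago–RNA signal of 14.46 in ES cells and 7.49 in NPC/Neu, 126-fold lower, beside total RNA of 14.05 and 6.91. Fabp7, the brain fatty acid binding protein of radial glia on chromosome 10 (57504687 to 57508256), had Ago–RNA signals of 6.70, not well above background, in ES cells and 17.13 in NPC/Neu, at least 1381-fold higher, beside total RNA of 6.96 and 17.38. E of Bcl3 was 0.42 and 0.58, and that of Fabp7 was -0.25 in NPC/Neu, with no measured level in ES cells. Also bound in ES cells only were 1190003J15Rik (Urah), an enzyme of urate breakdown, with a 49.6-fold difference in Ago–RNA, the MAGE family gene Mageb16 with 35.3-fold and Spp1, the secreted protein osteopontin, with 34.8-fold. Bound in NPC/Neu only were the transcription factors Nr2f1 with a 790-fold and Ebf3 with a 372-fold difference and the Wnt agonist Rspo3 with 164-fold. The log2 differences in total RNA of these genes ran from -7.40 for 1190003J15Rik to 10.43 for Fabp7. Of the 7 genes other than Fabp7, ΔE was beyond 1 for 1190003J15Rik and Rspo3, at 1.77 and -1.09. All these differences start from or end at signals below T1. Both signals lay below it in NPC/Neu for 1190003J15Rik, Bcl3, Mageb16 and Spp1, and in ES cells for Fabp7, Nr2f1, Ebf3 and Rspo3. The ΔE of Ebf3 (0.15) was -0.82 after quantile normalization of the processed signal, and the ΔE of Mageb16 (0.35) changed sign with the processed signal, to -0.078 and -0.90, and with separate normalization, to -0.17.

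Of the 22 loaded genes 7 were measured on all 4 arrays. For 14 of the 22 total RNA was not well above background in ES cells, for 11 neither was Ago–RNA, and 14 were not bound in ES cells, so their E in ES cells is not a measured level. Among the unbound ones were Fat3, Fat4 (giant cadherins), Reln (the extracellular guidance protein reelin), Robo2 (a receptor for Slit proteins), Hoxb8, Lzts1, Adamts3, Mylk, Nalcn, Col12a1 and Lamc3, which were named after their values were seen. In NPC/Neu these mRNAs were bound, with E between 2.01 for Robo2 and 3.40 for Lzts1. Fat1, another giant cadherin that was expressed throughout, was among the 96 genes, with E of 2.67 and 3.14.

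The 6 measured loaded genes with a symbol showed different patterns. Pigt, a subunit of the GPI transamidase on chromosome 2 (164323020 to 164333801), had Ago–RNA signals of 11.61, 11.24, 11.14 and 15.67 from ES cells to NPC/Neu and total RNA of 11.63, 13.54, 11.62 and 13.15. Its E was -0.02, -2.31, -0.48 and 2.52, so it was high at the last stage only. Chtf8, a subunit of a clamp loader for replication on chromosome 8 (109407790 to 109417493), had Ago–RNA of 14.90 in ES cells and 17.30 in NPC/Neu with total RNA of 14.77 and 15.19. Jund, an AP-1 transcription factor on chromosome 8 (73221638 to 73224515), had Ago–RNA of 14.25 and 17.84 and total RNA of 13.98 and 15.78. For both genes more of the difference lay in Ago–RNA than in total RNA, with ΔE of 1.98 and 1.79. Tnfsf9, a ligand of the TNF family, was highest in NPC with E of 3.81, against 0.26 in ES cells and 2.09 in NPC/Neu. Tas2r113, a bitter taste receptor gene with a single coding exon, had E of 0.41 and 2.34. Nhlrc3 was the gene of this group whose total RNA was lower in NPC/Neu, at 7.37 after 8.36, while Ago–RNA was 8.84 and 9.50, and its E was 0.48 and 2.12. Each of the 6 genes was read by a single probe.

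The released gene was 6330407I18Rik (Gucy1a2), a subunit of soluble guanylate cyclase on chromosome 9 (3532354 to 3897342). Its Ago–RNA signal was 10.88 in ES cells and 11.62 in NPC/Neu, and its total RNA was 8.88 and 11.24. E went from 2.00 to 0.39 because total RNA was higher by 2.36 while Ago–RNA was higher by 0.74. The single probe had E of 2.36 in ELA and -0.11 in NPC.

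Among all measured genes with a current symbol the largest losses and gains of enrichment, Pigt apart, did not start or end at E of 2 or more, and these genes were chosen after their values were seen. Ccdc41, which encodes a centriole protein, had Ago–RNA signals of 14.22, 14.15, 11.83 and 11.27 from ES cells to NPC/Neu while total RNA was 13.09, 13.14, 13.02 and 12.54. Its E was 1.13 and 1.01 at the first pair of stages and -1.19 and -1.27 at the second. Slfn9, a gene of the schlafen family, had the lowest ΔE, -2.71, with Ago–RNA of 10.89 and 8.69 and total RNA of 10.76 and 11.28 at the ends. H2-Gs10, Gm6252, Rfesd, Agmat and 6330415B21Rik had ΔE between -2.60 and -2.42. Both signals of Rfesd in ES cells (7.74 and 7.56) were below T1. So was Ago–RNA of Agmat in NPC/Neu (7.56) and that of 6330415B21Rik in ES cells (7.12). Under alternative processing the smallest losses were -1.16 for Gm6252, -1.58 for H2-Gs10 and -1.68 for 6330415B21Rik.

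At the other side Snora74a, a small nucleolar RNA, had a ΔE of 2.86, with E of -3.80 and -0.94 and a log2 difference of -4.12 in total RNA. Its Ago–RNA signal in NPC/Neu, 7.57, was below T1. Invs, whose product acts in cilia, went from Ago–RNA of 7.80 and total RNA of 9.79 in ES cells to 12.52 and 11.93 in NPC/Neu, a ΔE of 2.59 that starts from an Ago–RNA signal just below T1. 1810035L17Rik (Slirp), an RNA-binding protein of mitochondria, had total RNA between 14.37 and 14.99 at all stages and E of -0.68, 1.75, 2.79 and 1.73. Its gain was thus in place at the ELA stage. Spink3, Pigt, Acsbg2, Gm3134 and D5Ertd579e had ΔE between 2.37 and 2.55, and both signals of Spink3 in NPC/Neu (7.63 and 7.19) were below T1.

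The genes that lost and gained enrichment were followed through the 4 stages. For the 774 measured genes with ΔE of -1 or lower the median E was 0.41, 0.10, -0.52 and -0.91 along the 4 stages. For the 635 measured genes with ΔE of 1 or higher it was -0.68, -0.04, 0.39 and 0.62. Since the range of E is narrower in the middle stages, ranks among measured genes were also taken. By median rank the 774 genes were at percentiles 66.0, 60.1, 17.9 and 14.2, so most of the drop lay between ELA and NPC. The 635 genes were at 20.3, 48.2, 72.4 and 73.8, with little difference between NPC and NPC/Neu. These genes were chosen by the 2 end values, and only the middle values are independent of the choice.

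The transcripts kept on Ago were long, and the length lay in the coding sequence. A coding transcript of GENCODE vM1 was matched for 86 of the 96 genes. Their longest transcript had a median length of 6852.5 bases, a coding sequence of 5749.5 bases, 35.5 exons and a 3′ UTR of 809.5 bases. All bound genes with a transcript (13752) had medians of 2947.5, 1338 and 9 for the first 3 and 995 bases for the 3′ UTR. Ubr4, with 15954 bases, and Huwe1, with 14579, were among the longest.

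E followed transcript length at both ends. Median E in ES cells was -0.84 for genes with transcripts under 1000 bases (851 measured genes) and 1.24 for those of 8000 bases or more (464 genes), and in NPC/Neu it was -0.52 and 1.09. The kept genes were 7.33% of the longest bin, and none of them was in the bins under 2000 bases. A transcript was matched for 73.0% of all bound genes, so these values describe the matched genes alone. The Spearman correlation of E with length was 0.63 in ES cells (across 11548 measured genes) and 0.52 in NPC/Neu (11536 genes), and it was 0.39 in both ELA and NPC. Genes are not independent, and E at the stages was read by the same probes. With 3′ UTR length it was 0.28 in ES cells and 0.23 in NPC/Neu, lower than with coding length (0.67 and 0.56). ΔE was 0.29 in the shortest bin and -0.05 in the longest. The part of fragmentation, labeling and cell fraction in this relation was not tested.

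**Figure D4:**
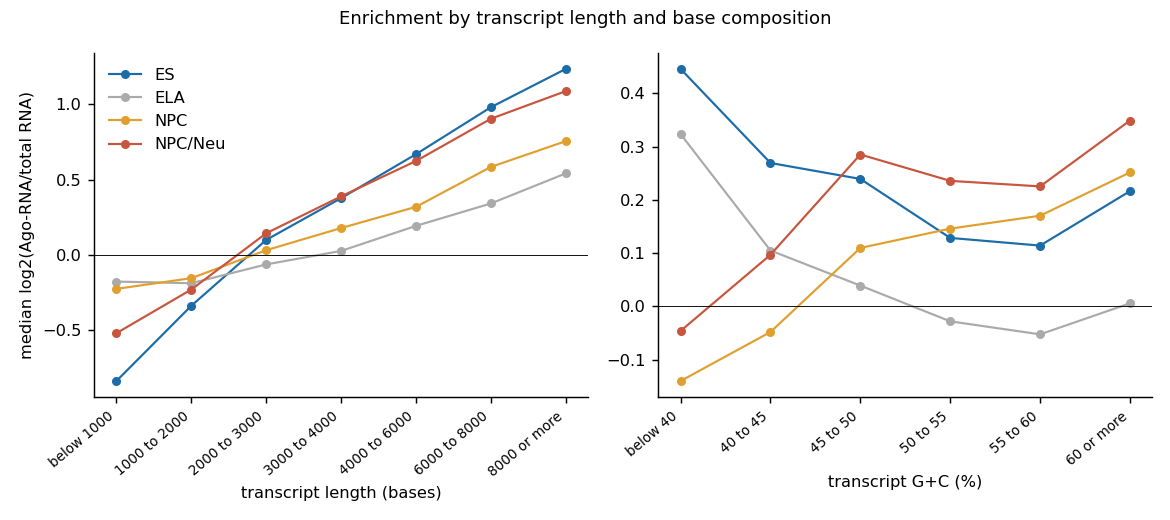
Median E of measured genes at the 4 stages in bins of transcript length (left) and of transcript G+C content (right), lines joining bins of the same stage. E is higher in the longest than in the shortest bin at every stage and most so in ES cells and NPC/Neu, and genes of low G+C content have higher E in ES cells than in NPC/Neu. The y axes differ in range.

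Base composition went with the difference between the ends. Median ΔE was -0.43 for 472 measured genes with under 40% G+C in their transcript and 0.11 for 709 genes with 60% or more. ΔE was -1 or lower for 19.9% of the former and for 1.41% of the latter. This was seen mostly in long transcripts. Between genes under 45% G+C and the others, the median ΔE differed by 0.05 for transcripts under 1000 bases and by -0.45 for those of 8000 bases or more. The 774 genes with ΔE of -1 or lower had a median G+C content of 44.2%, against 51.0% for all measured genes, but only 56.6% of them had a matched transcript, so that this value does not describe them all. The place of the probe went with smaller differences. Within 1498 genes that had probes in both the coding sequence and the 3′ UTR, ΔE of the 3′ UTR probes minus that of the others had a median of -0.04. In 4416 genes with several probes the median SD of ΔE between probes was 0.26, and in 138 of them 1 probe was at 0.5 or above while another was at -0.5 or below.

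Seed matches went with small differences in ΔE. Sites of 7 bases opposite the seed were counted on the mRNA strand of the 3′ UTR, in 10807 measured genes whose 3′ UTR had at least 100 bases, and genes with and without a site were compared within bins of 3′ UTR length. The site AGCACTT of miR-291a-3p and miR-294-3p was found in 15.7% of the 3′ UTRs, and it overlaps by 6 letters with GCACTTT of miR-17-5p, found in 13.4%. ΔE of genes with the AGCACTT site differed by -0.04 from that of genes without it and was lower in 5 of 5 bins. For CTACCTC of let-7a-5p (9.85% of 3′ UTRs) the difference was 0.09, and for CTCAGGG of miR-125b-5p (14.8%) it was 0.08, positive in 5 of 5 bins for both. It was 0.00 for miR-17-5p and -0.00 for ACCAAAG of miR-9-5p (12.9%). Genes were not matched on G+C content, which went with larger differences in ΔE, and its part in these values was not tested.

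These differences are read against those of miRNAs known from muscle and heart, added after the first values were seen. The difference was -0.02 for ACATTCC of miR-206-3p (10.3%), and 0.07 for CGTCTTA of miR-208a-3p, whose site was in 190 genes (1.76%). For miR-208a-3p it was positive in 3 of 3 bins. The values for let-7a-5p and miR-125b-5p are thus of the size seen with a comparator that has few genes.

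Of the 34 lists examined, that of collagens and laminins had the most members with ΔE of 1 or higher. They form the extracellular matrix and the basement membrane. Of 53 genes on the array 39 were bound, and ΔE was 1 or higher for 14 of the 39 and -1 or lower for 1, where 4.93% and 4.83% of all bound genes were. Of the 39, 10 were bound in NPC/Neu only, so that their Ago–RNA in ES cells was below T1. The 27 measured members had a median ΔE of 0.68. Along the 4 stages the median E of the 39 was 0.84, 0.16, 0.86 and 1.79. Col22a1 had Ago–RNA signals of 9.07 and 16.43 and total RNA of 7.60 and 13.49 at the ends, and E of 1.47 and 2.94. The basement membrane collagen Col4a2 had E of 1.21 and 2.64, and Lama1 had 1.38 and 2.72. Col12a1 had the highest ΔE, 2.80, but its total RNA in ES cells, at 6.51, was not well above background. Col7a1 had the lowest, -1.36, and its total RNA differed by -0.83. The range of the list's median ΔE over the alternatives was 0.51 to 0.75. Total RNA of 11 bound markers of mesoderm, endoderm and fibroblasts was also higher in NPC/Neu (median difference 1.43). Col3a1 belongs to both lists, with Ago–RNA of 8.03 and 13.71 and total RNA of 7.17 and 11.41. The part of such cells in these values was not tested.

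**Figure D5:**
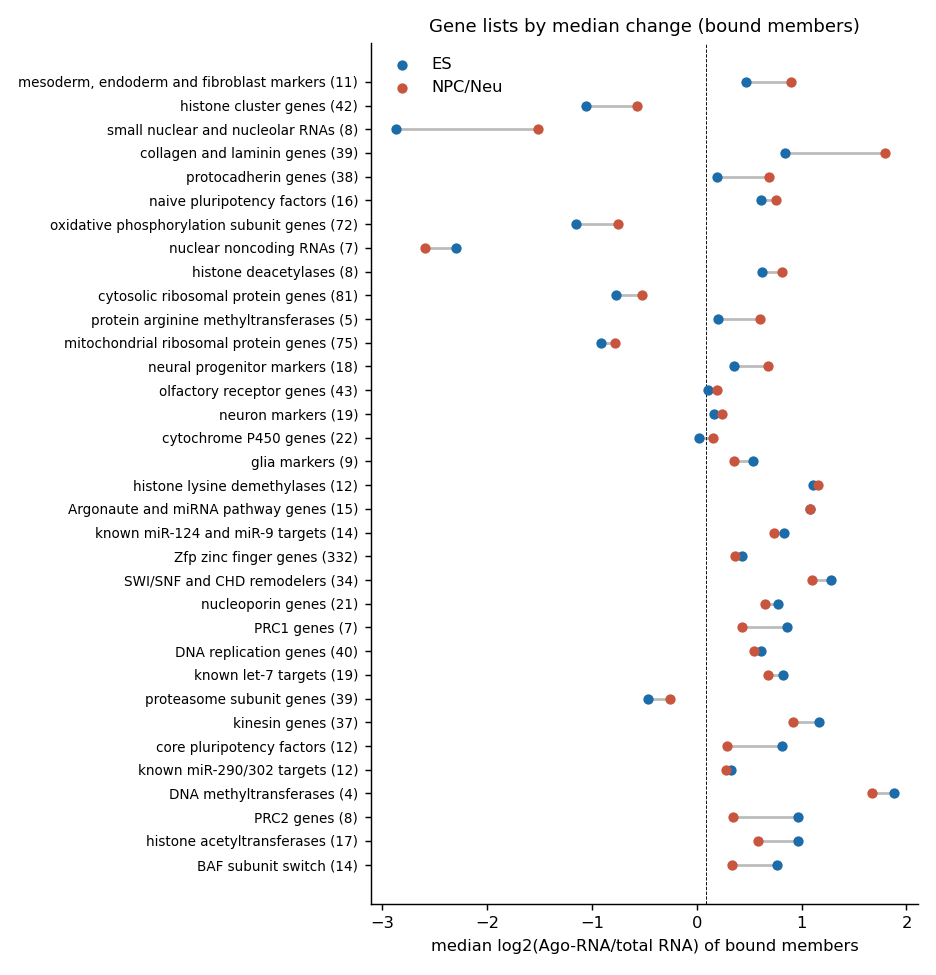
Median E of the bound members of each of 34 gene lists in ES cells and in NPC/Neu, with the number of bound members in parentheses, ordered by median ΔE; the dashed line is the median of all bound genes in ES cells (0.09). In NPC/Neu the median is highest for collagen and laminin genes (1.79) and in ES cells for DNA methyltransferases (1.88). Lists of nuclear RNAs and of short mRNAs other than those of olfactory receptors lie at the left at both ends.

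Lists of histone cluster, oxidative phosphorylation, ribosomal protein and proteasome genes, all of short mRNAs, had medians below zero at both ends, nearer to zero in NPC/Neu. All measured genes with transcripts under 1000 bases likewise had median E of -0.84 and -0.52, with a median ΔE of 0.29. This direction was thus not particular to these lists. The bound olfactory receptor genes, with a median transcript of 963.5 bases, had medians of 0.11 and 0.19. Median E of 42 bound histone cluster genes was -1.06 and -0.57 at the ends, and it was -0.15 in ELA and -0.14 in NPC. ΔE was positive for 39 of them and 1 or higher for 8, where 52.8% and 4.93% of all bound genes were. Hist1h1e, a linker histone gene, had Ago–RNA of 12.35 and 14.85 against total RNA of 14.47 and 15.70, and Hist1h4m had the highest ΔE, 1.65. Many histone genes are nearly identical, and their probes can share transcripts. Of 72 bound genes for subunits of oxidative phosphorylation, 58 had a positive ΔE and 10 had 1 or higher, beside the same shares of all bound genes. Their median E was -1.15 and -0.75. Ndufa5 of complex I was highest, with E of -0.98 and 0.95, while Cox6a1 was lowest with -0.11 and -0.82. The 81 cytosolic ribosomal protein genes had medians of -0.77 and -0.52, and the 75 mitochondrial ones had -0.92 and -0.78. Their median transcript lengths were 861 and 1213 bases. Proteasome subunits had medians of -0.47 and -0.25 in 39 genes and a median ΔE of -0.09 (0.46 under the 75th percentile scaling). Their ΔE was 1 or higher for none and -1 or lower for 1, Psmc5, where 4.93% and 4.83% of all bound genes were.

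Nuclear RNAs gave the lowest list medians of E at both ends. Malat1, a nuclear long noncoding RNA, had Ago–RNA of 9.55 and 9.98 against total RNA of 13.94 and 14.14, and E of -4.39 and -4.16. Over 7 bound nuclear noncoding RNAs the median E was -2.30 and -2.59. Among the 8 small nuclear and nucleolar RNAs it was -2.87 and -1.51, and Rnu1b6 had -3.02 and -2.63. Meg3, an imprinted long noncoding RNA, was lower on Ago in NPC/Neu, with Ago–RNA of 11.10 and 9.78 and total RNA of 13.39 and 13.86, and ΔE of -1.78. In ELA the value of Malat1 was -2.47 and that of Meg3 was -1.53, nearer to zero than at either end.

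Lists of chromatin genes differed in their level of E. Median E was 1.88 and 1.67 for the 4 DNA methyltransferases, 1.28 and 1.10 for 34 SWI/SNF and CHD remodelers, and 1.11 and 1.15 for 12 bound histone lysine demethylases. It was 0.62 and 0.81 for 8 histone deacetylases, 0.86 and 0.43 for 7 PRC1 genes, and 0.20 and 0.60 for 5 protein arginine methyltransferases. Median transcript length was 6536.5 bases for the remodelers, 6120.5 for the demethylases and 4792 for the DNA methyltransferases. It was 3807 for the PRC1 genes, 3593.5 for the deacetylases and 2691 for the arginine methyltransferases. Measured genes of 6000 to 8000 bases had median E of 0.98 and 0.90, and those of 4000 to 6000 had 0.67 and 0.62. Those of 2000 to 3000 had 0.10 and 0.14. The part of length in these levels was not tested. Dnmt3a, which acts de novo, had Ago–RNA of 11.95 and 15.25 and E of 1.25 and 1.99, with total RNA higher by 2.55. Dnmt3b, also a de novo enzyme and abundant in ES cells, had Ago–RNA of 18.59 and 13.02 and total RNA of 16.35 and 11.68, and E of 2.24 and 1.34, although its 3 probes ranged from -1.59 to 0.04 in ΔE. These mRNAs thus differed in opposite directions, in total RNA as in E. Smarca4, the ATPase of BAF complexes, had Ago–RNA of 16.63 and 16.79 while total RNA was 14.10 and 15.24, and E of 2.53 and 1.54. For a list of BAF subunits that includes Smarca4, Arid1a and Arid1b, ΔE was negative in 11 of 14 bound genes, with a median of -0.36. It was negative in 47.0% of all bound genes. Among the SWI/SNF and CHD genes Ercc6 and Smarcd1 had ΔE of -1.38 and -1.30.

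Most genes of the PRC2 list and most histone acetyltransferases had a lower E in NPC/Neu. Median E of the study's 8 PRC2 genes was 0.97 and 0.35, and of 17 acetyltransferases 0.97 and 0.59, with ΔE negative in 6 and 14 genes, where it was negative in 47.0% of all bound genes. Bmi1, in the PRC2 list although it is a partner of Ring1 in PRC1, had Ago–RNA of 9.97 and 10.90 against total RNA of 8.81 and 11.80. Ring1 had 9.35 and 9.80 against 8.49 and 11.08. E was 1.16 and -0.90 for Bmi1 and 0.86 and -1.28 for Ring1. In both cases total RNA was higher by more than 2 in NPC/Neu and Ago–RNA by less than 1. Suz12, a core subunit of PRC2 that is counted in the PRC1 list as well, had E of 0.92 and 0.08. The median ΔE of the DNA methyltransferases, acetyltransferases and PRC2 genes turned positive under the 75th percentile scaling.

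Genes of the miRNA pathway had the same median E at both ends. It was 1.08 for 15 genes, and none had ΔE of 1 or more in either direction, where 9.76% of all bound genes did, too small a share to set 15 genes apart. Their median ΔE, 0.03, was 0.33 under the 75th percentile scaling. Tnrc6b, a GW182 protein that links Ago to deadenylation, was lowest with E of 2.03 and 1.13, and Mov10, an RNA helicase associated with Ago, was highest with 1.85 and 2.54. The mRNAs of the Argonautes themselves, Eif2c1 to Eif2c4, had ΔE of 0.37, -0.26, 0.26 and 0.44, and total RNA of Eif2c4 was higher by 3.42.

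Known targets of let-7 went in different directions. Of 19 genes 3 had ΔE of -1 or lower and none 1 or higher, where 4.83% and 4.93% of all bound genes did. Among the 3 was Hmga2, a chromatin protein of growing cells, with Ago–RNA of 11.65 and 11.71 and total RNA of 10.26 and 11.96. Lin28b, an inhibitor of let-7 maturation, was another, with 13.05 and 11.91 against 11.71 and 11.77. E of Hmga2 was 1.39, 1.35, -0.35 and -0.25 along the stages, and that of Lin28b was 1.34, 1.51, -0.12 and 0.14. Hmga2 and Lin28b thus shared a step between ELA and NPC. Lin28a had E of 0.99, 0.75, 2.07 and 1.57, a difference of 0.58 the other way, while total RNA differed by -3.12. Nras had E of -0.17 and -0.21, and its total RNA differed by 0.04. Among 12 known targets of the miR-290 family and of miRNAs that share its seed none had ΔE beyond 1. Of all bound genes 9.76% did, too small a share to set 12 genes apart. Cdkn1a, the cell cycle inhibitor p21, was lowest of the 12 at -0.97, with E of 0.31 and -0.66. This is a mean of 3 probes with ΔE from -1.39 to -0.40, and the gene was not among the measured ones.

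Pluripotency and neural genes differed in total RNA far more than in E. Pou5f1 (Oct4), a core pluripotency factor, had Ago–RNA of 15.74 and 8.72 and total RNA of 15.21 and 8.31, and E of 0.53 and 0.41. L1td1, an RNA-binding protein of ES cells, had Ago–RNA of 18.63 and 12.05 and total RNA of 17.33 and 12.03, and was lowest in its list with a ΔE of -1.28. Klf5 was lowest among the naive factors with -0.74 and Tcl1 was highest with 1.44. In NPC/Neu the signals of Tcl1 were 7.93 and 7.57, close to T1.

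Of the neural genes, Hes1, a repressor downstream of Notch, had Ago–RNA of 8.82 and 11.72 and total RNA of 8.34 and 9.80, and E of 0.48, 1.21, 2.84 and 1.92 along the stages. It was the highest of the neural progenitor markers, with a ΔE of 1.44. Among neuron markers Cntn2 and Tubb3 had the highest ΔE, 1.32 and 1.31, but Cntn2 was not bound in ES cells, at an Ago–RNA signal of 6.89. Elavl3, a neuronal RNA-binding protein, had Ago–RNA of 11.69 and 14.28 and total RNA of 10.26 and 14.33, and E of 1.44 and -0.04. Snap25, a synaptic SNARE protein, had E of -0.78 and -1.88. The neuron markers thus held differences in both directions, 10 positive and 9 negative.

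Protocadherins, cell adhesion molecules of neurons, were the list with the largest share bound in NPC/Neu only. This held for 30 of 38 bound genes, where 9.47% of all bound genes were, and for 26 of the 30 total RNA was not well above background in ES cells. Median total RNA differed by 2.88 and Ago–RNA by 3.25. Pcdhga9, measured at both ends, had Ago–RNA of 11.03 and 15.49 and total RNA of 10.21 and 12.80, and E of 0.82 and 2.69. Pcdha8 had the lowest ΔE, -1.47, with total RNA of 7.58 and 11.07, as the mean of 2 probes at -1.87 and -1.08. It was not bound in ES cells, at an Ago–RNA signal of 7.53, so its E there is not a measured level. Genes of a protocadherin cluster share exons, so that probes there can read several of them.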

How the data were processed

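Total RNA and Ago–RNA were measured on Agilent one-color arrays. The authors deposited spot intensity as Feature Extraction 10.7.3.1 wrote it per the file headers (the submitters' processing notes name version 9.1), not normalized between arrays. In R 4.3.3, the limma 3.58.1 normexp correction (offset 50) was applied to the mean and background signals. Irregular and control spots were removed, quantile normalization over 8 arrays followed on the log2 scale, and spots of a probe, then probes of a gene name, were averaged. T1 was fitted with mclust 6.1.1. Over 5 random starts of that fit, 1748 to 1813 genes were bound in ES cells only and 1737 to 1784 in NPC/Neu only, and the counts of 96, 22 and 1 genes were the same. Quantile normalization does not keep a difference in overall recovery between arrays. Groups came from the labels.

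The members and lists were chosen with earlier results of these data known. Genes named by rule had a current symbol. They were, among genes well above background on the 4 arrays, the 6 kept genes with the highest lower E, the 6 loaded genes with the highest ΔE and the 6 released genes with the lowest. The rule also took, of genes bound at 1 end with total RNA well above background at both, the 4 with the largest Ago–RNA difference in each direction, and the lowest and highest bound member of each list. Other genes were chosen after their values were seen. Tables were made with Python 3.11.15, numpy 2.4.6 and pandas 2.3.3, and the steps were tested on simulated data. RefSeq symbols were matched for 22058 of 36163 gene names and GENCODE vM1 transcripts for 20249. Seeds of miR-302a-3p and miR-124-3p were not searched. Alternatives were offsets of 16 and 0, the processed signal quantile normalized or scaled to the 75th percentile, quantile normalization of the 4 end arrays or of Ago–RNA and total RNA apart, probes well above background, the brightest or any probe of a gene, and limits of 1.2 and 1.5. Control immunoprecipitations were not used here. One gene is not reported here.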

Additional observations from a re-analysis of the deposited data

How the results depend on the processing

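No paired analysis was possible because each condition has 1 array, and no replicate could be left out. The counts by limits of E moved most. Genes enriched at both ends were 211 with quantile normalization of the processed signal, 244 with Ago–RNA and total RNA arrays normalized apart, and 402 with a limit of 1.5, against 96. Of the 96, 46 were also found with its 75th percentile scaling, and 78 to 96 under the others. Released genes, 1 as reported, were 5 and 3 with offsets of 16 and 0, 159 with quantile normalization and 68 with 75th percentile scaling of the processed signal, 2 with the 4 end arrays alone, 7 with arrays normalized apart, 3 with the brightest and 3 with any probe, and 18 with a limit of 1.5. Loaded genes, 22 as reported, were 376 and 234 with the processed signal, 7 with probes well above background, 34 with a limit of 1.2 and 68 with 1.5.

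Genes bound at both ends were 24503 and 24609 with the processed signal, and those bound in ES cells only were 4057 with its 75th percentile scaling. With probes well above background the genes bound at 1 end were 958 and 923. Median E in ELA of the kept genes was 0.99 with arrays normalized apart, and it could not be given for the 4 end arrays alone. The 75th percentile scaling moved the median E of all bound genes to -0.35 and -0.32 at the ends, and that of ΔE to 0.11. Under it the median ΔE was 0.62 for DNA methyltransferases, 0.080 for acetyltransferases and 0.30 for PRC2 genes. ΔE of Mageb16 was -0.078 and -0.90 with the processed signal and -0.17 with arrays normalized apart, and that of Spna2 was -0.20 with the brightest probe. The cause was not tested. The median ΔE of 17 of the 34 lists had another sign under at least 1 alternative. The 75th percentile scaling turned 13 of them, among which DNA replication genes were at 0.53, nucleoporin genes at 0.38 and proteasome genes at 0.46. Of 287 values of named genes 235 differed from the reported ones by less than the spot SD. The ΔE of named genes under the alternatives, the genes of lowest and highest ΔE, the G+C bins, the probe places, the ranks, the comparator miRNAs and the starts of the fit were chosen after seeing the data.

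Signal over background limits the loaded genes most, since 15 of the 22 were not measured on all 4 arrays. With 1 array per condition the spread between cultures, immunoprecipitations and hybridizations is unknown. The same probes read all stages, so the response of a probe and its transcript cannot be told apart.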

Other observations

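Lists of genes for cell division and nuclear transport were above the median of all bound genes at both ends. Of 40 DNA replication genes the median E went from 0.61 in ES cells to 0.54 in NPC/Neu, and Orc4, a subunit of the origin recognition complex, had the lowest ΔE with -1.35. The list's median ΔE was -0.08, but 0.53 under the 75th percentile scaling. Of 37 bound kinesin genes it was 1.17 and 0.91, with the lowest ΔE, -1.29, at Kif20b, a kinesin of dividing cells, and the highest at Kif21b, a neuronal kinesin, with E of 0.94 and 2.02. The 21 nucleoporin genes had 0.77 and 0.65, and their lowest ΔE was that of Nup107, with E of 2.50 and 1.58. Their median ΔE, -0.05, was 0.38 under that scaling.

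Zinc finger genes named Zfp were the list with the most bound genes, 332, with medians of 0.43 and 0.36. ΔE was -1 or lower in 18 of the 332 and 1 or higher in 4, where 4.83% and 4.93% of all bound genes were. The lowest value was at Zfp946 (-2.07) and the highest at Zfp960 (1.74). Of 1101 olfactory receptor genes on the array 43 were bound at either end.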
